A study of Mus musculus with 6 samples.

Results

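The caveolar coat was followed through the mRNA of 8 genes, chosen by name from the 54532 genes in the count table: the caveolins *Cav1*, *Cav2* and *Cav3*, the cavins *Cavin1*, *Cavin2* and *Cavin3*, and the membrane-shaping genes *Ehd2* and *Pacsin2*. Of these, 7 had enough counts to be among the 16003 genes tested, and *Cav3* did not. RNA-seq had been performed on epididymal white adipose tissue (eWAT), the visceral fat pad beside the epididymis, from 3 cachectic and 3 control mice. All were male C57BL/6 mice, 6 to 10 weeks old by the methods, and their fat was taken on day 21. The cachexia group carried LLC tumours, grown from cells of the Lewis lung carcinoma line that were placed under the skin. For the control group the labels name no agent, and they name no genetic change in either group. The tumour model is a graft of a single mouse cell line, so the tumour did not arise in the animal itself.

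Caveolae are flask-shaped pits of the plasma membrane and are especially dense in adipocytes and endothelial cells. Caveolins insert into the inner leaflet as oligomers, cavins form a coat around them from the cytosol, and EHD2 and PACSIN2 act at the neck. In adipocytes, caveolae are known to flatten under tension as the cell swells and to gather the insulin receptor and fatty acid uptake proteins, and loss of *Cav1* or *Cavin1* in mice or humans causes lipodystrophy.

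In the fat of cachectic mice, 4 coat genes fell: *Cav1* 3.62-fold, *Cavin3* 3.40-fold, *Cav2* 2.88-fold and *Ehd2* 2.64-fold. The main structural cavin *Cavin1*, its partner *Cavin2*, and *Pacsin2* did not pass the test, and no coat gene rose. The coat mRNA that remained had a different makeup, with a smaller share of *Cav1* and larger shares of *Cavin1* and *Cavin2* in every cachectic mouse than in any control mouse. The summed CPM (counts scaled to a normalised library of fixed size) of the 8 genes was between 7516 and 9596 in control mice and between 2766 and 4867 in cachectic mice. In bulk tissue, fewer cells of a type and less RNA per cell cannot be told apart.

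The count table held between 14928766 and 18855546 counts per sample, with fewer in each cachectic mouse than in any control mouse. Groups separated on the leading principal component, which held 57.6% of the variance, and control replicate 1 stood apart from the other two control mice on the next one (16.3%). Without control replicate 1 the log2 fold changes were -1.93 for *Cav1*, -1.62 for *Cav2*, -1.83 for *Cavin3* and -1.53 for *Ehd2*, all still past the threshold. Counts were scaled by edgeR's TMM factors and compared by edgeR's quasi-likelihood test with Benjamini-Hochberg (BH) adjustment over all tested genes, with a threshold of 0.05, and log2 fold changes are those of cachexia over control. A two-sided exact permutation test cannot give a p below 0.1 with 3 mice in each group. No source stated how the mice of a group were kept or handled together, so whether they are independent is not known. The edgeR p-values set the group difference against the spread between samples within groups.

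CAV1 is the protein around which caveolae of non-muscle cells are built. The *Cav1* gene (ENSMUSG00000007655) lies on the plus strand of chromosome 6 from 17306335 to 17341452 in the coordinates of the files, which match GRCm38. *Cav1* stood at 3153, 3463 and 3967 CPM in control replicates 1, 2 and 3, and at 1248, 685 and 989 CPM in cachexia replicates 1, 2 and 3. The lowest control mouse was thus far above the highest cachectic mouse, and cachexia replicate 2 was the lowest of all. The mean went from 3528 ± 411 to 974 ± 282 CPM (SD, n = 3), a log2 fold change of -1.86 (SE 0.27, 95% confidence interval -2.49 to -1.23; adjusted p = 0.00556 by edgeR). Raw counts were never under 11159 in a mouse, so counting error was small beside the spread between mice.

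CAV2 forms mixed oligomers with CAV1 and depends on it to reach the cell surface. The *Cav2* gene (ENSMUSG00000000058) is its upstream neighbour on the same strand, from 17281185 to 17289115, and ends 17220 bases before the start of *Cav1*. Control mice had 821, 953 and 1071 CPM of *Cav2*, and cachectic mice had 399, 253 and 336 CPM. Again the groups were apart, and the mice kept the order they had for *Cav1* in both groups. The log2 fold change of *Cav2* was -1.53 (SE 0.22, interval -2.03 to -1.02; adjusted p = 0.00525 by edgeR), from 948 ± 125 to 329 ± 73.7 CPM (SD, n = 3).

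CAV3 is the caveolin of muscle. *Cav3* (chromosome 6, 112459505 to 112472872, plus strand) had 1, 0 and 1 counts in control mice and 3, 2 and 0 counts in cachectic mice. These counts are at or under 3, the floor that a count of 0 allows, which corresponds to between 0.1505 and 0.1967 CPM in the 6 samples, so no fold is given and a difference was not detectable at this depth. Of 12 skeletal muscle markers, *Myh4* was at 0 in every sample (*Myh4* was named after its values were seen). The actin gene *Acta1* had means of 32.4 CPM in control and 23.1 CPM in cachectic mice. Its cachexia values were 6.42, 5.83 and 57.2 CPM in replicates 1, 2 and 3, beside 22.2 to 39.1 CPM in control mice.

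**Figure D1:**
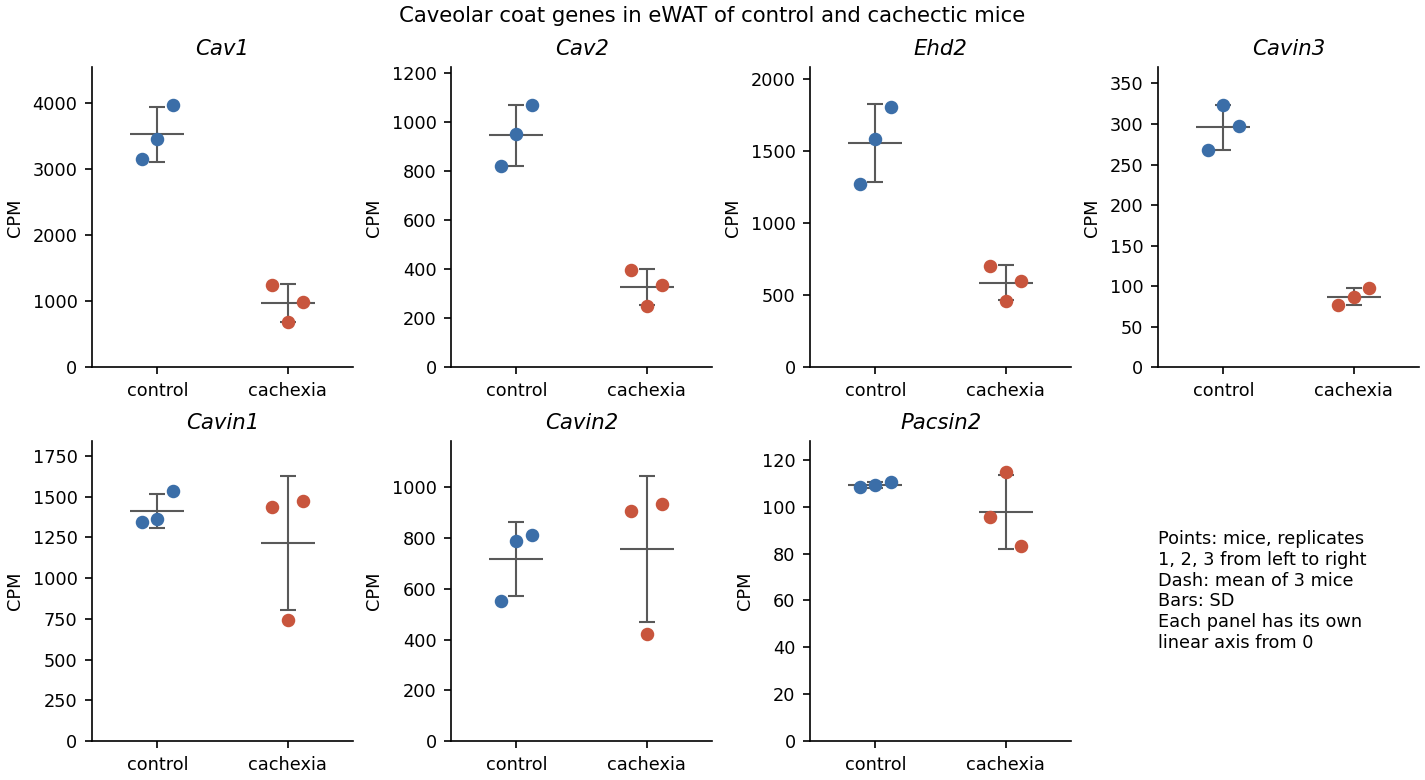
Expression in CPM (vertical axis, linear, from 0) of the 7 tested coat genes in each mouse, with the mean and SD of the 3 mice of each group. *Cav1*, *Cav2*, *Ehd2* and *Cavin3* show no overlap between groups, while cachexia replicate 2 is the low point of *Cavin1* (742 CPM) and *Cavin2* (424 CPM).

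The sequences before *Cav1* and *Cav2*, which fell together, are given beside that of *Cavin2*, which did not pass the test. A RefSeq promoter entry (GRCm38.p6) was matched for 7 of the 8 genes. *Cavin3* had none. Each window below is the 250 bases before the gene's start, 5′ to 3′ on the plus strand, at chr6:17306085-17306334 for *Cav1*, chr6:17280935-17281184 for *Cav2* and chr1:51288876-51289125 for *Cavin2*. Capitals mark matches, on either strand, to any of 5 motifs: the box of Sp and Klf factors, spelled GGGCGG, the box bound by NF-Y, spelled CCAAT, the core promoter box spelled TATAAA, the E box, spelled CACGTG, and the core bound by TEAD factors, spelled GGAATG. No matches overlapped in these windows.
Cav1: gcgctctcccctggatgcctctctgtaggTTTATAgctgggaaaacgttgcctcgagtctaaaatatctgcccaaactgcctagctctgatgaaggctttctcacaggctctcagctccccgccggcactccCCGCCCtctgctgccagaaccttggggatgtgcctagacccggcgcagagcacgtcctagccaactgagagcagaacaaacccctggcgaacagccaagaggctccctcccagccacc
Cav2: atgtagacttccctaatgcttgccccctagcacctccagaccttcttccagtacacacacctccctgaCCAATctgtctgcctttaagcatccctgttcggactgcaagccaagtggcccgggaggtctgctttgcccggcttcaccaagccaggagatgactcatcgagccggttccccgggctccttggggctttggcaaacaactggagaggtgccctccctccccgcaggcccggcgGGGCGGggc
Cavin2: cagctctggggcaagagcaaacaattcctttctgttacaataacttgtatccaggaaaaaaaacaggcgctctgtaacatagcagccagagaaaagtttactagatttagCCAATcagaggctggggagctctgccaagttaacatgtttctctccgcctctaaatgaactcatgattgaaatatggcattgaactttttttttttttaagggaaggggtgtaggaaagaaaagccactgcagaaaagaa

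The *Cav1* and *Cav2* windows each held 1 GGGCGG and the *Cavin2* window held none. Of the windows not shown, those of *Ehd2*, *Cavin1* and *Pacsin2* held 1 each and that of *Cav3* held none. The match was thus not particular to genes that fell. CCAAT was found in the *Cav2* and *Cavin2* windows, and a TATAAA on the minus strand in that of *Cav1*. Over the 7 matched coat genes, GGGCGG and CCAAT were each present in 5 windows, TATAAA and GGAATG in 1 each, and CACGTG in 0. Of these windows, that of *Cavin1* precedes a RefSeq start 270 bases inside the gene of the files, and that of *Ehd2* one 32 bases inside, and the GGAATG match is in the *Cavin1* window. Over all 32851 promoter windows of this length, the shares were 32.7% for GGGCGG, 33.8% for CCAAT, 12.4% for TATAAA, 12.6% for GGAATG and 6.02% for CACGTG. The motifs were chosen after the expression values had been seen, and a match describes letters only.

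CAVIN1 is the cavin without which caveolae do not form. *Cavin1* (ENSMUSG00000004044, chromosome 11, 100956733 to 100970887, minus strand) was at 1344, 1363 and 1532 CPM in control mice and at 1438, 742 and 1472 CPM in cachectic mice. Cachectic replicates 1 and 3 thus lay within the control range, and cachexia replicate 2 was well under it. Its log2 fold change was -0.22 (SE 0.28, interval -0.86 to 0.43; adjusted p = 0.629 by edgeR; exact permutation p = 0.8), from 1413 ± 103.5 to 1217 ± 412 CPM (SD, n = 3). Without cachexia replicate 2 it was 0.05, so the direction rests on that mouse.

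CAVIN2 (SDPR) binds CAVIN1 and shapes caveolae into tubules. For *Cavin2* (chromosome 1, 51289126 to 51302960, plus strand) control mice had 551, 788 and 813.5 CPM, and cachectic mice had 908, 424 and 936 CPM. The pattern among cachectic mice was that of *Cavin1*, with replicates 1 and 3 above every control mouse and replicate 2 under every one. For *Cavin2* the log2 fold change was 0.08 (SE 0.32, interval -0.66 to 0.82; adjusted p = 0.890 by edgeR; exact permutation p = 1). Leaving out control replicate 1, cachexia replicate 1 or cachexia replicate 3 turned its sign, to -0.08, -0.08 and -0.10.

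CAVIN3 (PRKCDBP) joins the coat through CAVIN1 and binds protein kinase C delta. In contrast to the other cavins, *Cavin3* (chromosome 7, 105480083 to 105482300, minus strand) fell in each cachectic mouse, from 268, 323 and 297 CPM to 76.6, 87.3 and 97.4 CPM. Its spread was the smallest, relative to its mean, of the 4 genes that fell, in both groups. The log2 fold change was -1.76 (SE 0.15, interval -2.12 to -1.41; adjusted p = 0.00131 by edgeR). *Cavin3* shares exon sequence with *Gm45667*, an annotated gene of the opposite strand. The use of strand in counting is not given in the sources used here, so the counts of the pair cannot be fully separated.

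EHD2 is an ATPase that holds caveolae at the cell surface by forming a ring at the neck. *Ehd2* (chromosome 7, 15946958 to 15967567, minus strand) was at 1272, 1586 and 1806 CPM in control mice and at 702, 460.5 and 602 CPM in cachectic mice. Every cachectic mouse was under every control mouse, and cachexia replicate 2 was the lowest, as for the caveolins. The log2 fold change of *Ehd2* was -1.40 (SE 0.23, interval -1.94 to -0.86; adjusted p = 0.00846 by edgeR).

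PACSIN2 is an F-BAR protein that bends the membrane as caveolae form, and it is used elsewhere in endocytosis. *Pacsin2* (chromosome 15, 83375607 to 83464606, minus strand) had the lowest FPKM of the tested coat genes in both groups, and stood at 108, 109 and 111 CPM in control mice and at 95.6, 115 and 83.4 CPM in cachectic mice. Cachexia replicate 2, the lowest for most coat genes, was the highest for *Pacsin2*. The log2 fold change was -0.16 (SE 0.14, interval -0.49 to 0.18; adjusted p = 0.478 by edgeR; exact permutation p = 0.4).

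By count, 4 of the 7 tested coat genes (57.1%) fell, against 8.63% of all tested genes, and 0 rose, against 9.0%. The 0 that rose was 0 as well at an unadjusted p under 0.05 in edgeR, in DESeq2 and in limma-voom, and the 4 that fell also passed in both other tools. All 4 fell at least 2-fold, as did 5.49% of all tested genes. For the same 4 genes the groups did not overlap, which held for 40.5% of all tested genes in either direction and for 20.1% in the lower direction. The coat genes tested had a median log2 fold change of -1.40, against 0.00 over all tested genes. For each of the 4, the exact permutation p was 0.1, the smallest it can take. Beyond the opposite-strand overlap of *Cavin3*, *Cav1*, *Cav2* and *Cavin2* overlap an antisense gene and *Pacsin2* holds a processed pseudogene, none with shared exon sequence.

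**Figure D2:**
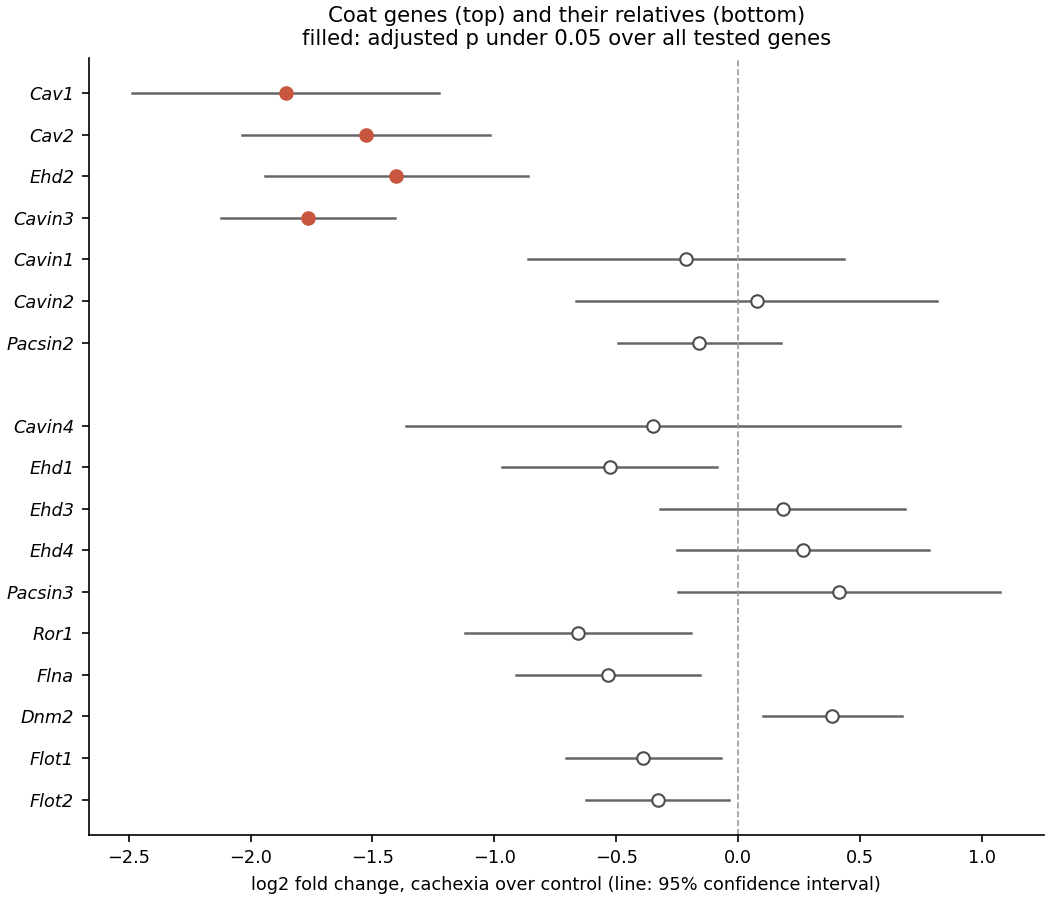
Log2 fold change of cachexia over control (horizontal axis) with its 95% confidence interval for the 7 tested coat genes and the 10 tested relatives. Filled points passed the threshold in edgeR: *Cav1* (-1.86), *Cav2* (-1.53), *Ehd2* (-1.40) and *Cavin3* (-1.76), while the other coat genes and the relatives are open.

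To compare genes with each other, the deposited FPKM (reads scaled to gene length and library size) were used, since they correct for gene length. In control mice the order was *Cav1* at 1011 ± 117 FPKM, *Cavin1* at 389 ± 28.5, *Ehd2* at 299.8 ± 51.5, *Cav2* at 281 ± 36.8, *Cavin2* at 232 ± 46.5, *Cavin3* at 176 ± 16.1 and *Pacsin2* at 22.0 ± 0.232 FPKM (SD, n = 3). The ranges of *Ehd2* and *Cav2*, of *Cav2* and *Cavin2*, and of *Cavin2* and *Cavin3* overlapped, although within each of the 3 mice the order was the same. In cachectic mice *Cavin1* led with 332 ± 113 FPKM, followed by *Cav1* at 276.5 ± 80.6, *Cavin2* at 242 ± 92.3, *Ehd2* at 112 ± 23.4, *Cav2* at 96.5 ± 21.8, *Cavin3* at 51.2 ± 5.99 and *Pacsin2* at 19.5 ± 3.13 FPKM. There the ranges of *Cavin1*, *Cav1* and *Cavin2* ran into each other, as did those of *Ehd2* and *Cav2*. *Cavin1* nonetheless exceeded *Cav1* within each of the 3 cachectic mice, and *Cav1* exceeded *Cavin2* in 2 of 3.

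As a share of the summed FPKM of the coat genes, *Cav1* made up 42.6%, 41.0% and 42.3% in control mice and 26.2%, 25.3% and 22.1% in cachectic mice. *Cavin1* held 17.4%, 15.5% and 15.7% in control mice and 29.0%, 26.3% and 31.6% in cachectic mice. *Cavin2* held 8.39%, 10.5% and 9.79%, and then 21.5%, 17.7% and 23.6%. The 3 shares thus separated the groups in every mouse, including cachexia replicate 2, whose summed FPKM of 767 was the lowest (control mice had between 2126 and 2687 FPKM and the other cachectic mice 1356 and 1266). The shares of *Cav2* (11.5 to 11.8% in control mice, 7.76 to 9.63% in cachectic mice) and *Ehd2* (11.6 to 13.0% and 9.06 to 11.4%) were lower in cachectic mice without overlap. The share of *Cavin3* overlapped, because of 6.68% in cachexia replicate 2 against 6.58% in control replicate 3. Shares sum to 100, so a fall in one raises the others.

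**Figure D3:**
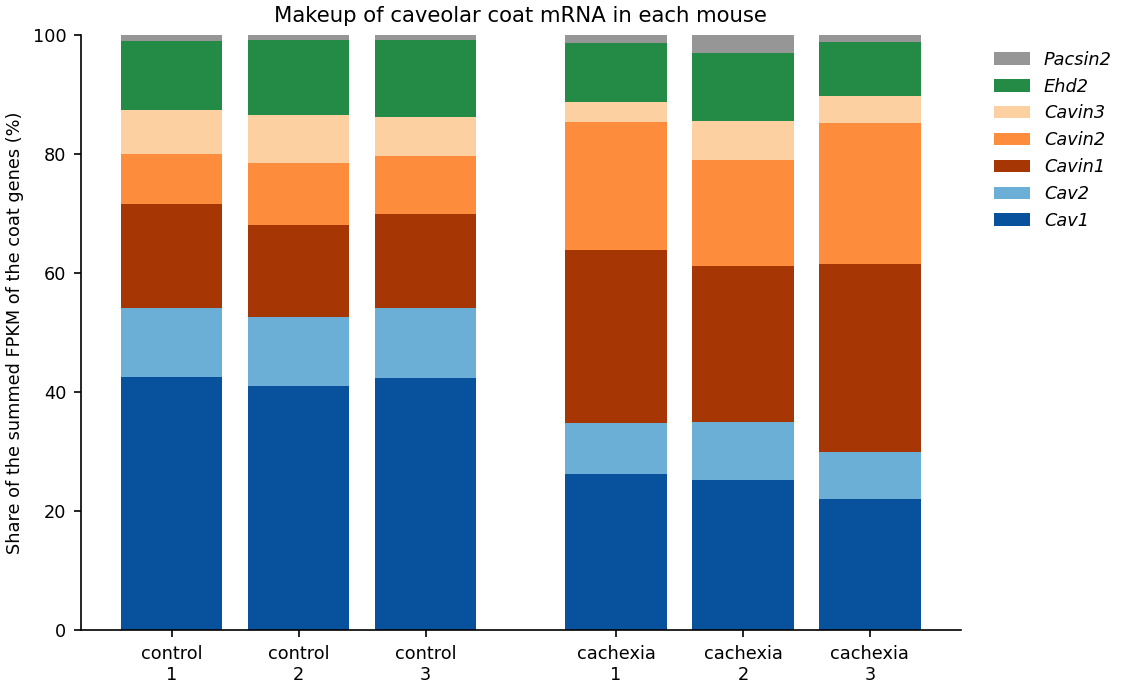
Share of each tested coat gene in the summed FPKM of the coat (vertical axis, percent) in each of the 6 mice, stacked to 100. The *Cav1* block shrinks from 41.0 to 42.6% in control mice to 22.1 to 26.2% in cachectic mice, and the *Cavin1* and *Cavin2* blocks widen.

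Ratios of FPKM within a mouse do not depend on how that mouse was scaled. The ratio of *Cavin1* to *Cav1* was 0.409, 0.378 and 0.371 in control mice and 1.11, 1.04 and 1.43 in cachectic mice, a change of 1.61 on the log2 scale (exact permutation p = 0.1, the smallest possible). It was under 1 in each control mouse and over 1 in each cachectic mouse. The caveolins did not fall in exact proportion, since the ratio of *Cav2* to *Cav1* was 0.269, 0.284 and 0.279 in control mice and 0.331, 0.381 and 0.351 in cachectic mice (change of 0.35 on the log2 scale, no overlap, exact permutation p = 0.1). The ratio of *Ehd2* to *Cav1* went from between 0.271 and 0.308 to between 0.378 and 0.452, again without overlap (log2 change 0.48). Among the cavins, the ratio of *Cavin3* to *Cavin1* went from between 0.419 and 0.512 to between 0.115 and 0.254 (log2 change -1.49, no overlap). The ratio of *Cavin2* to *Cavin1* overlapped, with 0.481, 0.679 and 0.624 in control mice and 0.742, 0.672 and 0.747 in cachectic mice (log2 change 0.29, exact permutation p = 0.2). The 6 ratios tested, that of *Pacsin2* to *Cav1* included (log2 change 1.72, no overlap), cannot pass 0.05 with 3 mice in each group.

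Within groups, the mice differed in the caveolins, *Ehd2* and the long cavins together. After each group's mean was removed from log2 CPM, Pearson's r with *Cav1* over the 6 samples was 0.985 for *Cav2*, 0.939 for *Ehd2*, 0.899 for *Cavin1* and 0.897 for *Cavin2*. It was -0.21 for *Cavin3* and -0.60 for *Pacsin2*. Of all other tested protein-coding genes, *Fabp5* (r = 0.995), *Ywhab* (0.993), *Gstt1* (0.991), *Park7* (0.991) and *Art3* (0.991) followed *Cav1* most closely. *Fabp5*, a fatty acid binding protein, and *Ywhab*, a 14-3-3 adaptor, had log2 fold changes of -0.24 (adjusted p = 0.381 by edgeR) and -0.19 (adjusted p = 0.650). These r are descriptions over 6 samples that share libraries and scaling, picked as the highest of many.

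On chromosome 6, the fall of the caveolin pair was set beside its neighbourhood, chosen after the values had been seen. Within 500 kb of *Cav1*, 25 genes are annotated, of which 9 were tested, 7 of them protein-coding. Among the 5 protein-coding neighbours, *Tes*, a focal adhesion gene, had a log2 fold change of 0.20 (adjusted p = 0.560 by edgeR) and *Met*, the hepatocyte growth factor receptor, one of 0.05 (adjusted p = 0.924). *Capza2*, an actin capping subunit, was at -0.06 (adjusted p = 0.766), *St7* at -0.19 (adjusted p = 0.572) and *Tfec*, a transcription factor, at -0.87 (interval -1.84 to 0.10; adjusted p = 0.188). None of these 5 passed the threshold, and the intervals of *Tes*, *Met*, *Capza2* and *St7* lay above those of *Cav1* and *Cav2*.

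**Figure D4:**
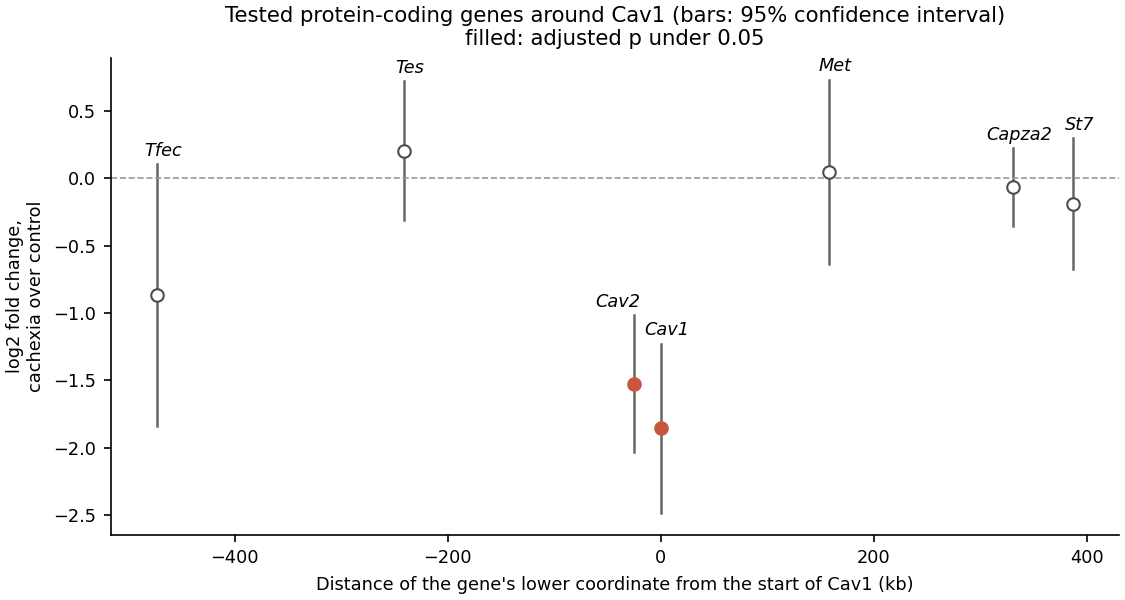
Log2 fold change of cachexia over control with its 95% confidence interval (vertical axis) for the 7 tested protein-coding genes within 500 kb of *Cav1*, by distance in kb from the start of *Cav1* (horizontal axis). *Cav2* and *Cav1* are filled (adjusted p under 0.05) and lie under the intervals of *Tes*, *Met*, *Capza2* and *St7*, while that of *Tfec* reaches down to theirs.

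The relatives of the coat genes were 11, and 0 of the 10 tested passed the threshold in either direction in edgeR, against 17.6% of all tested genes. At an unadjusted p under 0.05 edgeR had 1 higher and 5 lower, DESeq2 called 1 higher and 3 lower, and limma-voom called 0. Among the paralogues of *Ehd2*, *Ehd1*, of endosomal recycling, went from 227 to 157 CPM (log2 fold change -0.53, interval -0.97 to -0.09; adjusted p = 0.0950 by edgeR). *Ehd3* (33.6 to 38.1 CPM) and *Ehd4* (108 to 130 CPM) had intervals from -0.32 to 0.68 and from -0.25 to 0.78. These 3 intervals lie partly or wholly above that of *Ehd2*, and the difference between paralogues was not tested. *Pacsin3*, the muscle-type paralogue of *Pacsin2*, was at 27.0 and 35.9 CPM, *Pacsin1*, the neuronal one, had between 0 and 42 counts and was not tested, and *Cavin4*, the muscle cavin, was at 1.01 and 0.791 CPM.

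Another 5 relatives, of proteins outside the coat, had log2 fold changes smaller in size than those of *Cav1*, *Cav2*, *Cavin3* and *Ehd2*. Theirs were not smaller than those of *Cavin1*, *Cavin2* or *Pacsin2*. These differences between genes were not tested. The intervals of *Ror1* (-1.12 to -0.19) and *Flna* (-0.91 to -0.16) overlapped that of *Ehd2* (-1.94 to -0.86), and that of *Ror1* also overlapped that of *Cav2*. *Flna*, the actin crosslinker that ties CAV1 to stress fibres, went from 596 to 412 CPM (log2 fold change -0.53; adjusted p = 0.0592 by edgeR). *Ror1*, a receptor that scaffolds CAV1 and CAVIN1, went from 13.6 to 8.61 CPM (-0.66; adjusted p = 0.0592). *Dnm2*, the dynamin of membrane fission, was at 130 and 169 CPM (0.39; adjusted p = 0.0676). The flotillins *Flot1* (105 to 80.4 CPM) and *Flot2* (128 to 102 CPM), which form other membrane domains, had log2 fold changes of -0.39 (adjusted p = 0.0901) and -0.33 (adjusted p = 0.111). For all 5 of these genes the groups did not overlap, as for 40.5% of all genes.

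Of 13 receptors, transporters and enzymes known to reside in caveolae, 2 rose and 4 fell (median log2 fold change -0.33), beside 9.0% and 8.63% of all tested genes. A difference of these counts from those shares was not tested. *Insr*, the insulin receptor, rose from 135, 203 and 212 CPM to 399, 446 and 410 CPM (log2 fold change 1.19, SE 0.20; adjusted p = 0.00868 by edgeR). *Scarb1*, the receptor for high-density lipoprotein, rose from between 209 and 217 CPM to between 400 and 815 CPM (1.39; adjusted p = 0.0147). Both thus moved opposite to *Cav1* and *Cav2*, in every cachectic mouse. Lower were *Egfr*, the epidermal growth factor receptor (144 to 63.4 CPM, log2 fold change -1.19; adjusted p = 0.00876), *Bmpr1a*, a BMP receptor (165 to 98.9 CPM, -0.74; adjusted p = 0.0214), *Aoc3*, an amine oxidase of the adipocyte surface (1719 to 659 CPM, -1.38; adjusted p = 0.0320), and *Nos3*, the endothelial nitric oxide synthase that CAV1 inhibits (64.7 to 46.55 CPM, -0.47; adjusted p = 0.0339). The fatty acid transporter *Cd36* (0.20, interval -0.41 to 0.80; adjusted p = 0.637) and the insulin-sensitive glucose transporter *Slc2a4* (-0.60, interval -1.27 to 0.07; adjusted p = 0.187) did not pass; *Nos3*, *Cd36* and *Slc2a4* were named after their values were seen. Without control replicate 2 or 3 the counts were 1 higher and 1 lower, and without cachexia replicate 3, 1 gene was lower.

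Among 12 transcriptional regulators known to act on caveolin or coat genes, 1 rose and 2 fell (median log2 fold change 0.20). Of all tested genes 9.0% rose and 8.63% fell, so the share that rose was near that of all genes. *Srebf1*, which codes for the lipogenic factor SREBP1, went from 514, 579 and 602 CPM to 143, 264 and 83.8 CPM (log2 fold change -1.79, SE 0.38; adjusted p = 0.0188 by edgeR). *Srebf2*, for the sterol-regulated factor SREBP2, went from between 91.5 and 108 CPM to between 52.4 and 55.8 CPM (-0.85; adjusted p = 0.00514). *Tead4*, a partner of YAP and TAZ, rose from 9.70 to 16.4 CPM (0.75; adjusted p = 0.0324), a call lost without any 1 of control replicates 1, 2 and 3 or cachexia replicates 2 and 3. The lower count was 1 without control replicate 2, control replicate 3 or cachexia replicate 1. Named after their values were seen, *Yap1* (-0.03, interval -0.36 to 0.30; adjusted p = 0.908), *Wwtr1* for TAZ (0.11, interval -0.28 to 0.50; adjusted p = 0.689) and the adipocyte factor *Pparg* (-0.28, interval -0.82 to 0.25; adjusted p = 0.425) did not pass.

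Caveolae are carried by several cell types of the fat pad, so markers of each were set beside the coat genes, with the same shares of all genes (9.0% higher, 8.63% lower) as background to their counts. Adipocyte markers were abundant in all samples, with summed CPM of 12 genes between 21589 and 29376 in control mice and between 17896 and 31803 in cachectic mice, and overlapped. *Fabp4*, a fatty acid binding protein (7747 to 9933 CPM, log2 fold change 0.36; adjusted p = 0.575 by edgeR), *Cidec*, a lipid droplet protein (2409 to 4404 CPM, 0.87; adjusted p = 0.0322) and *Plin4*, a perilipin (2334 to 2331 CPM, 0.00; adjusted p = 0.997), were the 3 with the highest mean CPM. In all, 2 adipocyte markers rose, *Cidec* and the lipase *Pnpla2* (1.08; adjusted p = 0.0197). Also 2 fell, *Dgat2*, of triglyceride synthesis (-4.00; adjusted p = 0.00315), and *Lep*, for leptin (-3.14; adjusted p = 0.0475). At an unadjusted p under 0.05 edgeR had 2 higher and 4 lower, DESeq2 called 2 higher and 4 lower, and limma-voom 2 and 2. The median was -0.09, and *Pnpla2*, *Dgat2* and *Lep* were named after their values were seen. Cachexia replicate 2, lowest in *Cav1*, *Cav2*, *Cavin1*, *Cavin2* and *Ehd2*, also had the lowest adipocyte sum. Without control replicate 2 or 3, 0 adipocyte markers rose and 1 fell; 0 rose without cachexia replicate 1, and 1 rose without control replicate 1, cachexia replicate 2 or cachexia replicate 3.

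Of the markers of endothelial cells, the other cell type rich in caveolae, 7 of 12 rose and 0 fell (at an unadjusted p under 0.05, 9 rose and 0 fell in edgeR; DESeq2 called 9 and 0, and limma-voom 7 and 0). Their summed CPM was between 1801 and 1875 in control mice and between 2779 and 3883 in cachectic mice, the highest being that of cachexia replicate 2. *Cdh5*, the cadherin of endothelial junctions, went from 374 to 624 CPM (0.74; adjusted p = 0.0426 by edgeR), *Pecam1*, another junction protein, from 355 to 793 CPM (1.16; adjusted p = 0.0170), and *Kdr*, a VEGF receptor, from 269 to 320 CPM (0.25; adjusted p = 0.343). The count of endothelial markers that rose was 4 without control replicate 1 and 2 without control replicate 2 or control replicate 3. The part of adipocyte and endothelial cell numbers in the coat gene values was not tested.

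Markers of other stromal cells were mostly lower or not called. Of 10 progenitor and fibroblast markers, *Ly6a* rose and 4 fell, *Col1a1*, *Col3a1*, *Lum* and *Pi16* (median -0.71; *Ly6a*, *Lum* and *Pi16* were named after their values were seen), with a summed CPM of 5405 to 6197 in control mice and 2501 to 3467 in cachectic mice. *Col3a1*, a fibrillar collagen, fell from 2475 to 272 CPM (-3.18; adjusted p = 0.00212 by edgeR), *Col1a1* from 632 to 104 CPM (-2.61; adjusted p = 0.00565), and *Dcn*, for decorin, was at 2058 and 1976 CPM (-0.06; adjusted p = 0.873). The count of progenitor markers that fell was 2 without any 1 control mouse or without cachexia replicate 2, and 0 rose without control replicate 3. Of 10 mural markers, of pericytes and smooth muscle, 0 rose (also 0 at an unadjusted p under 0.05 and in DESeq2 and limma-voom) and 1 fell, *Rgs5* (518 to 274 CPM, -0.92; adjusted p = 0.0308), a call lost without control replicate 2 or 3. The mural sum was 1121 to 1461 CPM in control mice and 599 to 972 CPM in cachectic mice. Coat genes fell beside lower sums of these lists, and the part of these cells was not tested.

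**Figure D5:**
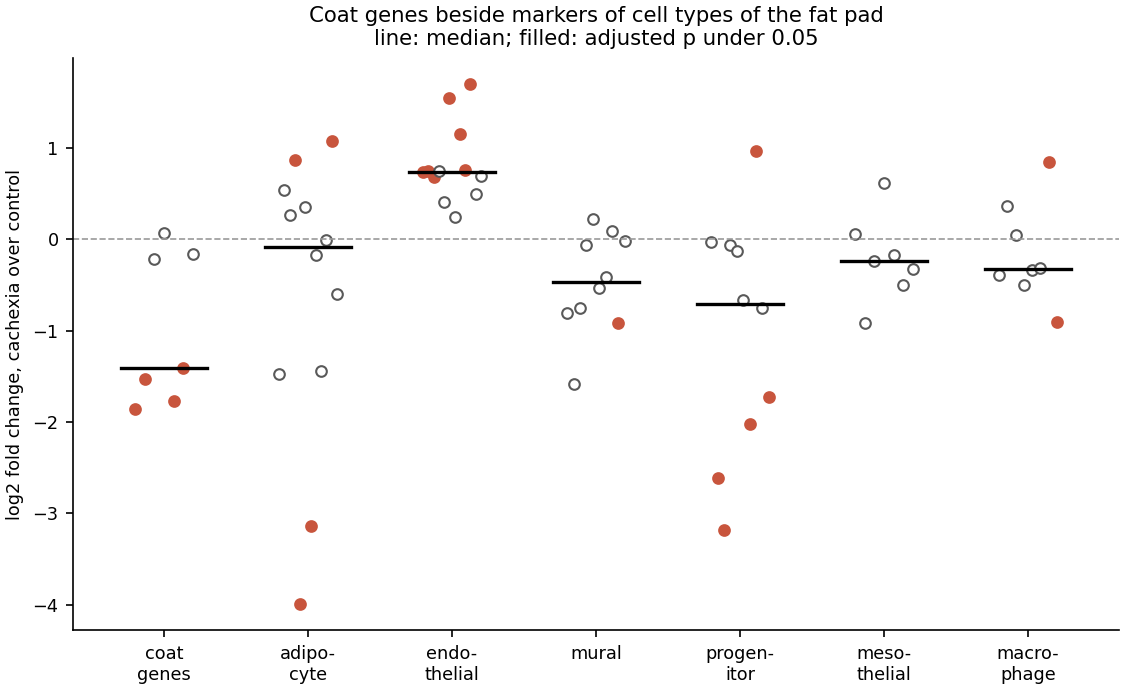
Log2 fold change of cachexia over control (vertical axis) of each tested gene of the coat and of 6 marker lists, with a line at each list's median and filled points for adjusted p under 0.05 in edgeR. The coat median is -1.40, the adipocyte median -0.09 and the endothelial median 0.74.

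For the remaining lists, macrophage markers gave 1 higher (*Mertk*) and 1 lower (*Mrc1*) of 8 (*Mertk* was named after its value was seen; sum 779 to 955 CPM in control mice, 572 to 938 CPM in cachectic mice), and mesothelial markers 0 of 7 in edgeR (0 higher and 1 lower at an unadjusted p under 0.05, and 0 in DESeq2 and limma-voom; sum 317 to 418 CPM and 190 to 417 CPM). The macrophage call up was lost without any 1 control mouse, and the call down without control replicate 2 or 3 or cachexia replicate 2 or 3. Of 8 neutrophil markers 7 were tested and all 7 rose, with a sum of 28.0 to 48.7 CPM in control mice and 241 to 639 CPM in cachectic mice. Some of them had few counts in control mice and passed the count filter only through the cachectic mice, so the filter partly set this count. With a minimum of 10 counts in all samples, 3 rose. All 6 erythroid markers rose as well, from a sum of 253 to 451 CPM to one of 1335 to 2857 CPM. Of 12 skeletal muscle markers 4 were tested and *Actn3* fell, a call lost without control replicate 3 (sum 37.7 to 53.2 CPM and 10.3 to 61.9 CPM), and of 8 epididymal markers none was tested, with a sum of at most 5.52 CPM. The share of mitochondrial counts was 3.53 to 5.36% in control mice and 2.86 to 3.63% in cachectic mice. The part of these in the coat gene values was not tested.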

How the data were processed

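RNA-seq of eWAT from 3 cachectic and 3 control mice was analysed, grouped by the sample labels. Libraries were made with the NEBNext Ultra RNA kit and read as 150 bp pairs. Adapter-bearing and poor reads were discarded by the authors, who ran Hisat2 for alignment, counted reads per gene with featureCounts (1.5.0-p3 per the submitters' processing notes) and deposited the raw counts. The authors also deposited FPKM, computed from gene length and counts. The labels name mm9, but GENCODE M21, which annotates GRCm38, holds 99.8% of the gene identifiers, 98.3% of them at the same coordinates. Strand use in counting is not given in the sources used here. A further deposited table, of differential expression made with DESeq2 (1.16.1 per the same notes), holds log2 fold changes and p-values with 6 columns of per-sample values and 2 of group means. It was not used.

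Counts were tested with edgeR 4.0.16 under R 4.3.3 (low counts filtered by filterByExpr, TMM, quasi-likelihood test, BH adjustment over 16003 genes, threshold 0.05, no covariates). Total counts per sample were between 14928766 and 18855546, and the biological coefficient of variation was 0.264. Together these set the precision of a gene. Standard errors were obtained from each log2 fold change and the root of its F statistic. Exact permutation tests used log2 CPM (pseudocount 0.5) or log2 ratios of FPKM, two-sided. The deposited FPKM were used for levels, shares and ratios of the coat genes in each mouse and in the alternatives named at the end. The 6 samples all differed from each other by more than sampling noise.

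The coat genes and all lists (relatives, caveolar residents, transcriptional regulators, and markers of 10 cell types) were chosen with earlier results of these data known. Named were all 8 coat genes, all relatives, up to 5 called genes of each other pathway list by p, up to 3 markers of each list by CPM and 5 genes by likeness to *Cav1*. Markers of the last lists are given as sums. Any gene outside this rule is marked as named after its value was seen. Promoters came from RefSeq tables of GRCm38.p6.

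Alternatives were RLE factors, plain library totals, DESeq2 1.42.0, limma-voom (limma 3.58.1), the replicate number as a block, omission of 1 sample at a time, no filter, a minimum of 10 counts in all samples, limma on log2-transformed FPKM (pseudocounts 1 and 0.1) and, for ratios, counts per kilobase. The scripts were tested on simulated data.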

Additional observations from a re-analysis of the deposited data

How the results depend on the processing

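The 4 coat genes that fell passed the threshold in all 15 alternative settings, and no coat gene rose in any. The log2 fold change ranged from -2.08 to -1.65 for *Cav1* (adjusted p from 7.155e-13 to 0.0321), from -1.69 to -1.36 for *Cav2*, from -1.85 to -1.68 for *Cavin3* and from -1.55 to -1.25 for *Ehd2* (adjusted p up to 0.0454). *Pacsin2* stayed between -0.29 and -0.05 and never passed. Leaving out 1 mouse, *Cavin1* ranged from -0.37 to 0.05 and *Cavin2* from -0.10 to 0.37, neither ever past the threshold. *Cavin1* turned sign without cachexia replicate 2 (0.0457). *Cavin2* turned sign without control replicate 1 (-0.08), cachexia replicate 1 (-0.08) or cachexia replicate 3 (-0.10), and by limma on log2-transformed FPKM (-0.0042 at a pseudocount of 1, -0.0046 at 0.1). The 6 FPKM ratios kept their direction in all 7 settings.

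Over all genes, 1440 rose and 1381 fell. Leaving out 1 mouse gave 382 to 1197 that rose and 446 to 1142 that fell, lowest without control replicate 3 (382 and 446) and control replicate 2 (600 and 712). DESeq2 called 1955 and 1929. The median log2 fold change of all tested genes lay between -0.0222 and 0.0465 in the 15 settings. Replicate numbers are shared by different mice, and same-numbered deviations correlated at -0.0031, -0.011 and 0.0085. The mice did not each correlate best with their own number. A correlation over all genes cannot show a handling step shared by number that moved only some genes, so pairing was not settled. With the replicate block, 913 genes rose and 968 fell, *Cav1* was at -1.89, *Cav2* at -1.54, *Cavin1* at -0.28, *Cavin2* at 0.02, *Cavin3* at -1.77, *Ehd2* at -1.41 and *Pacsin2* at -0.17, and 1 caveolar resident fell in place of 4. List counts varied with the setting. Relatives had 0 to 1 higher and 0 to 3 lower, caveolar residents 1 to 3 and 1 to 4, and transcriptional regulators 0 to 2 and 1 to 2. Adipocyte markers had 0 to 2 higher and 1 to 4 lower, and endothelial markers 2 to 10 higher. Mural markers had 0 to 2 lower, progenitor markers 2 to 5 lower and neutrophil markers 3 to 8 higher. Why the counts fell without a control mouse was not tested. With 3 mice in each group and these depths, *Cav3* and differences in *Cavin1* or *Cavin2* within their intervals were not detectable.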

Other observations

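Within 500 kb of *Cav1*, both tested noncoding genes passed the threshold, in opposite directions. They were chosen after their values were seen. *Gm4876*, an antisense gene that lies across *Tes* (chromosome 6, 17065010 to 17171833, minus strand), had 21.8, 20.2 and 25.4 CPM in control mice and 4.61, 1.11 and 9.38 CPM in cachectic mice (log2 fold change -2.16, SE 0.58; adjusted p = 0.0407 by edgeR). As in *Cav1*, cachexia replicate 2 was the lowest. *Tes*, on the other strand, had 24.3, 23.6 and 20.7 CPM and then 20.2, 35.9 and 22.9 CPM, and without a stated strand setting the counts of the pair cannot be fully separated. *D830026I12Rik*, a long intergenic RNA between *Tes* and *Cav2* (17197751 to 17210152, plus strand), had 5.52, 6.13 and 5.33 CPM in control mice and 10.8, 9.89 and 8.06 CPM in cachectic mice (0.76, SE 0.21; adjusted p = 0.0469 by edgeR).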
